A study of Mus musculus with 6 samples.

Results

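Livers of mice carrying a whole-body inactivation of *Themis* were compared with wild-type livers for the mRNA of *Cd63* and 9 further tetraspanins, which are *Cd9*, *Cd81*, *Cd82*, *Cd151*, *Cd53*, *Cd37*, *Tspan3*, *Tspan4* and *Tspan8*. These 10 genes were taken by symbol from the 25403 genes of the count table, and each symbol had 1 row. *Cd63* was chosen by its counts in this same contrast, which were higher and tight in the livers labelled *Themis*-KO, so its difference is described here with no test. The others were taken as members of the same family. The 2 groups were 3 livers of wild-type C57BL6/J mice (WT) and 3 livers of *Themis* KO mice, and both groups received the same MASH (metabolic dysfunction–associated steatohepatitis) diet, named AMYLIN liver NASH diet in the labels, in which fat supplied 40% and fructose 20% of the energy and cholesterol was added at 2%. Feeding began at an age of 10 to 12 weeks and lasted 3 months. No liver of mice on chow is part of the comparison, so a response to the diet itself cannot be read from it. The inactivation covers all cell types, T cells included, and whole liver was sequenced. Per the study's methods wild-type mice were bought from a supplier and the *Themis*-KO mice came from another laboratory. For mice on chow, the study also speaks of WT and *Themis*-KO littermates. Whether these WT livers came from littermates or from bought mice is not stated outright.

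Tetraspanins are small proteins that cross the membrane 4 times and gather integrins, immunoglobulin-family proteins, proteases and receptors into membrane domains. CD63 sits mainly in late endosomes, lysosomes and the vesicles inside multivesicular bodies, and CD63, CD9 and CD81 are the usual surface markers of exosomes, which arise when multivesicular bodies fuse with the plasma membrane. In liver, CD81 and CD151 are found on most cell types, CD53 and CD37 are leukocyte proteins, and TSPAN8 is known from epithelia. CD9 and CD63 are carried by macrophages of injured tissue as well as by epithelial cells.

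The sequences before the start sites of 4 members are shown to set 3 genes that were higher in the *Themis*-KO group, *Cd63*, *Tspan8* and *Cd53*, beside the most abundant member, *Cd81*, whose groups overlapped. They were taken from RefSeq (GRCm38.p6), 5′ to 3′ on the strand of each gene, and hold only bases outside every exon of GENCODE vM21. The windows are chr10:128909095-128909344 on the forward strand for *Cd63*, chr10:115817034-115817270 on the forward strand for *Tspan8*, chr3:106790150-106790399 on the reverse strand for *Cd53* and chr7:143052500-143052738 on the forward strand for *Cd81*. The window of *Tspan8* ends 13 bases and that of *Cd81* 11 bases before the RefSeq start, and the windows of *Cd63* and *Tspan8* lie inside the GENCODE bounds of these genes but outside their exons. The full windows of 250 bases hold 48.8% G and C for *Cd63*, 52.4% for *Tspan8*, 45.2% for *Cd53* and 65.6% for *Cd81*. *Cd9*, also higher in the *Themis*-KO group, is not printed, since its window begins within an exon. That window holds GGGCGG 81 and 60 bases before the start. Capitals mark the GC box GGGCGG.
Cd63: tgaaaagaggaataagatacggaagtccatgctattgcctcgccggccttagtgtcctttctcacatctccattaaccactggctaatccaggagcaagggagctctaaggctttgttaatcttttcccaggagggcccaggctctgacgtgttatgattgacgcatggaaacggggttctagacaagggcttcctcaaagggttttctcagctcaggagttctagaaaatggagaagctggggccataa
Tspan8: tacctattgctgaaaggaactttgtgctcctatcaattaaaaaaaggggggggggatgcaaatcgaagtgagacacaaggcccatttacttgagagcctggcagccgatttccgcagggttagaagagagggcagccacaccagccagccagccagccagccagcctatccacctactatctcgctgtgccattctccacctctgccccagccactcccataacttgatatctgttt
Cd53: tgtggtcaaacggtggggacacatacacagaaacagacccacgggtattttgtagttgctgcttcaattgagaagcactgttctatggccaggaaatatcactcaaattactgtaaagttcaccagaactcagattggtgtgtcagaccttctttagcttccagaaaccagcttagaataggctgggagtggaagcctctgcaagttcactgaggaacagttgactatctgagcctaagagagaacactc
Cd81: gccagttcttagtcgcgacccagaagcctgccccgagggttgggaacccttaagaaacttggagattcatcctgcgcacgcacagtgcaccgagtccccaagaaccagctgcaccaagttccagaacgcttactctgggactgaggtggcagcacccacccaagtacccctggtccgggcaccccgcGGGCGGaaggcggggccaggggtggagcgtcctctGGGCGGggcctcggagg
All 10 members matched the promoter table, with 15 windows of 250 bases upstream of a start. GGGCGG on either strand was present for 6 members, *Cd9*, *Cd81*, *Cd82*, *Cd151*, *Cd37* and *Tspan4*, in 7 of the 15 windows, and 32.7% of all 32851 promoter windows hold it. The windows of *Cd63*, *Cd53*, *Tspan3* and *Tspan8* did not contain these letters. The E-box core CACGTG, found in 6.02% of all windows, occurred for *Cd37*, 228 bases before a start, and for *Tspan4*, 51 bases before a second start. GGAATG, the TEAD motif, was present in 2 windows of *Cd82* and in 12.6% of all windows. The AP-1 motif TGANTCA, found in 6.75% of all windows, matched in 0 of the 15. No motif overlapped another in the printed windows.

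Total counts per library ran from 20679642 to 25649767, and 14496 genes, all 10 members among them, passed the filter on low counts. A gene was called when the quasi-likelihood test of edgeR gave an adjusted p below 0.05, and 9.11% of these genes, 1321 in all, were called, 4.97% as higher and 4.14% as lower in the *Themis*-KO group. Calls that also changed at least 2-fold made up 2.97%. DESeq2 called 2369 of the 14496 genes. With edgeR, 4449 of them had an unadjusted p under 0.05, and 2932 to 6291 genes did when 1 liver was left out. Counts of these kinds for single lists below are to be read beside these numbers. The number of edgeR calls depended on single livers: it was 44, 76 and 850 when WT replicate 1, 2 or 3 was left out, and 20, 68 and 4267 when *Themis*-KO replicate 1, 2 or 3 was. *Themis* itself did not separate the labels: its CPM, the count scaled to library size with TMM normalization, was 8.07, 25.6 and 12.0 in the WT livers and 8.63, 7.74 and 9.97 in the *Themis*-KO livers (log2 fold change −0.79, SE 0.38, edgeR adjusted p = 0.199). Values of single livers are given here and below in the order of replicates 1, 2 and 3. The groups are therefore named by their labels, and every direction rests on these labels. WT replicates 1 and 2 stood apart from the other 4 livers in the mitochondrial gene *mt-Nd3* and its nuclear copy *Gm28438*: *Gm28438* took at least 96.6% of the summed counts of both in these livers and at most 3.26% in the others. This mitochondrial type and the genotype labels cannot be told apart for them, and WT replicate 3 is the only WT liver with the type of the *Themis*-KO livers. *Xist* was at or under 0.378 CPM and *Ddx3y* at or above 36.3 CPM in all 6 livers. The 12 hepatocyte markers, led by *Alb* with a mean of 41692 CPM in the WT group, all passed the filter.

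*Cd63* had the largest fold change of the 10 members, which is the pattern it was chosen for. *Cd63* (ENSMUSG00000025351, forward strand of chromosome 10, chr10:128900989-128912822 in GRCm38) encodes the endosomal and lysosomal tetraspanin also known as LAMP-3. Its level was 13.7, 18.3 and 22.7 CPM in the WT livers and 75.9, 72.4 and 65.1 CPM in the *Themis*-KO livers. The lowest *Themis*-KO liver was 2.87 times the highest WT liver, and the spread within each group was small beside this gap, with 18.2 ± 4.51 and 71.1 ± 5.52 CPM (mean ± SD, n = 3 each). The fitted log2 fold change was 1.96 (SE 0.17), 60th from the top when the genes that passed the filter are ordered from the largest rise to the largest fall. In whole tissue, a change in the number of cells of a type and a change in RNA per cell cannot be told apart, here or for any gene below. Against WT replicate 3 alone, the WT liver of the same mitochondrial type, the mean of the *Themis*-KO livers was 3.13 times as high, and against the mean of all WT livers 3.905 times. A processed pseudogene, *Cd63-ps*, could share reads with the gene but held from 2 to 12 counts per liver, against 298 to 1786 for *Cd63*.

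**Figure D1:**
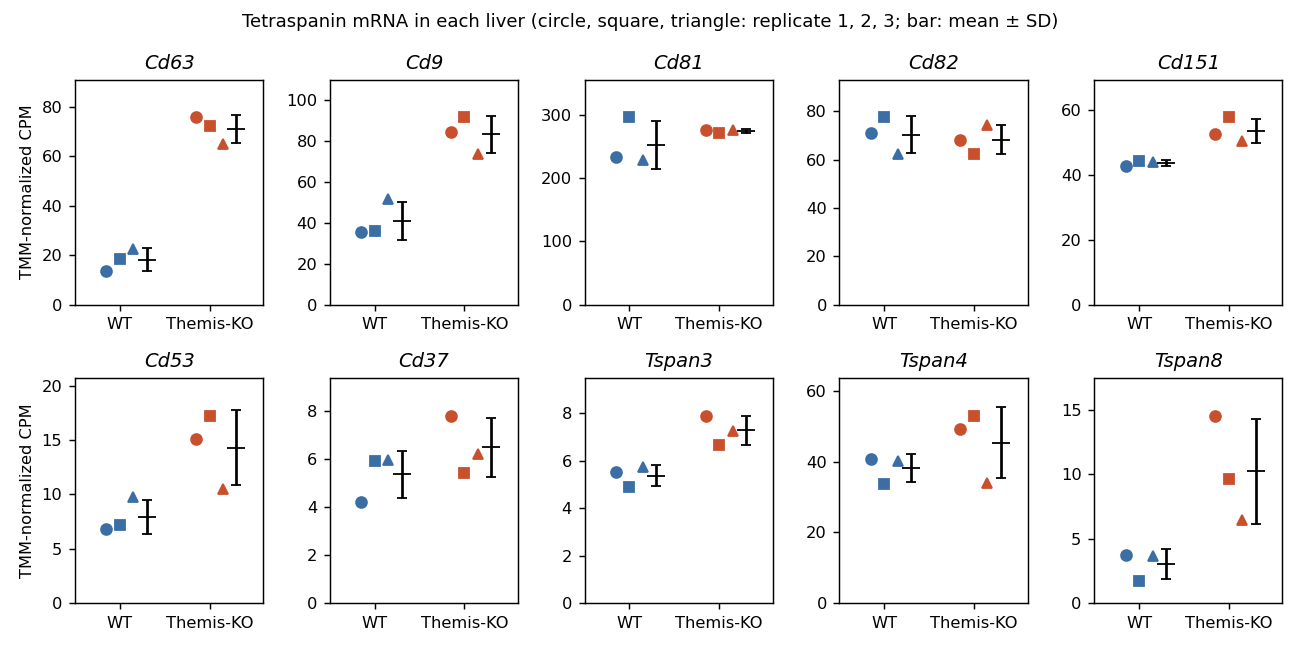
TMM-normalized CPM (vertical axis, from 0 in each panel) of the 10 tetraspanins in each liver labelled WT (blue) or *Themis*-KO (orange); circle, square and triangle are replicates 1, 2 and 3, and the black bar is the mean ± SD of 3 livers. The groups are apart for *Cd63* (at most 22.7 against at least 65.1 CPM), *Cd9*, *Cd151*, *Cd53*, *Tspan3* and *Tspan8*, and they overlap for *Cd81*, *Cd82*, *Cd37* and *Tspan4*.

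Among the 9 members other than *Cd63*, 3 rose at an adjusted p under 0.05, *Cd9*, *Tspan8* and *Cd53*, and 0 fell, beside 4.97% and 4.14% of all tested genes. The median log2 fold change of the 9 was 0.30, against 0.0095 for all tested genes. In 5 of the 9, every *Themis*-KO liver lay above every WT liver, which held for 17.7% of all tested genes (34.6% did not overlap in either direction), and in 0 of the 9 was the order the opposite. DESeq2 called 3 of the 9, beside 2369 of all 14496 tested genes. With edgeR, 5 of the 9 had an unadjusted p under 0.05, beside 4449 of the 14496. Leaving out replicate 1 or 2 of either group gave an edgeR count of 0, leaving out WT replicate 3 gave 1 and leaving out *Themis*-KO replicate 3 gave 5, while 4 to 6 of the 9 had an unadjusted p under 0.05 in these fits. With the mitochondrial type as a covariate edgeR called 0 of the 9, and 2 had an unadjusted p under 0.05.

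*Cd9* approximately doubled. *Cd9* (ENSMUSG00000030342, reverse strand, chr6:125460266-125494791) encodes an exosome and cell surface tetraspanin, and it also stands in the list of senescence genes that the study used. The gene had 35.3, 35.9 and 51.5 CPM in the WT livers and 84.3, 91.7 and 73.9 CPM in the *Themis*-KO livers. As for *Cd63*, WT replicate 3 was the highest WT liver and *Themis*-KO replicate 3 the lowest *Themis*-KO liver, and the groups did not overlap. On the log2 scale the rise was 1.02 (SE 0.16, edgeR adjusted p = 0.0198), with a mean ratio of 2.04 that was 1.62 against WT replicate 3 alone. The exact two-sided permutation test gave p = 0.1, the smallest that 3 livers against 3 allow. Without 1 liver, the adjusted p was 0.0948 (WT replicate 1), 0.0831 (WT replicate 2), 0.0769 (*Themis*-KO replicate 1) and 0.0931 (*Themis*-KO replicate 2), and over all 14 alternatives it ran from 1.1e-06 with DESeq2 to 0.302 with the mitochondrial type as a covariate. An antisense transcript, *Gm26728*, overlaps 218 exonic bases of *Cd9*, and reads there could belong to either.

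*Tspan8* had the largest fold change of the 9 and one of the lowest levels. *Tspan8* (ENSMUSG00000034127, forward strand, chr10:115816832-115849893) is an epithelial tetraspanin that joins integrin and EpCAM complexes. Its values were 3.72, 1.68 and 3.63 CPM in the WT livers and 14.6, 9.68 and 6.47 CPM in the *Themis*-KO livers. The *Themis*-KO livers spread over a range of more than their lowest value and all lay above the WT livers. The rise on the log2 scale was 1.76 (SE 0.37; edgeR adjusted p = 0.0345, exact two-sided permutation test p = 0.1). The ratio of the means was 3.40, and 2.82 against WT replicate 3 alone. The adjusted p exceeded 0.05 without any 1 of WT replicates 1, 2 and 3 (0.117, 0.0999 and 0.0572) and without *Themis*-KO replicates 1 or 2 (0.114 and 0.118), within a range from 3.8e-05 to 0.450 over the 14 alternatives.
Cholangiocyte markers moved with *Tspan8*. Their summed level was 215 to 260 CPM in the WT livers and 410 to 638 CPM in the *Themis*-KO livers, highest in *Themis*-KO replicate 1, as for *Tspan8*. Of the 9 markers, 1 passed the test, *Spp1*, which macrophages also express and which made up most of the sum. The duct keratins *Krt7* and *Krt19* had a mean of 1.13 and 1.68 CPM in the WT group and 2.51 and 2.86 CPM in the *Themis*-KO group, with adjusted p of 0.0923 and 0.242 from edgeR. The part of duct cells in the *Tspan8* result was not tested.

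The leukocyte tetraspanins differed from each other in their result. *Cd53* (ENSMUSG00000040747, reverse strand, chr3:106759921-106790149), which is expressed across leukocytes, had 6.83, 7.15 and 9.75 CPM in the WT livers and 15.1, 17.2 and 10.5 CPM in the *Themis*-KO livers. The groups did not overlap, though WT replicate 3 and *Themis*-KO replicate 3 lay within 1.08 times of each other. Its log2 fold change was 0.85 (SE 0.22) with an adjusted p of 0.0495 from edgeR, close to the threshold, and a permutation p of 0.1 (exact, two-sided). This p was 0.172, 0.147 and 0.0503 without WT replicates 1, 2 and 3, 0.152 and 0.164 without *Themis*-KO replicates 1 and 2, 0.0502 with RLE size factors, and between 0.0045 and 0.531 over all 14 alternatives. *Cd37* (ENSMUSG00000030798, reverse strand, chr7:45233632-45239115), best known from B cells, had 4.22, 5.90 and 5.96 CPM in the WT and 7.82, 5.42 and 6.23 CPM in the *Themis*-KO livers. The groups of *Cd37* overlapped, with a log2 fold change of 0.28 (SE 0.20, edgeR adjusted p = 0.381). The difference between the changes of *Cd53* and *Cd37* was not tested.
Macrophage markers moved in part with *Cd63*, *Cd9* and *Cd53*. Of 12 markers, 3 rose, *Gpnmb*, *Trem2* and *Cd68*, and 0 fell, and their summed level of 423 to 651 CPM in WT livers overlapped the 613 to 788 CPM of *Themis*-KO livers. WT replicate 3, the highest WT liver for these 3 tetraspanins, also held the highest WT sum. Stellate cell markers, 6 of 11 of which rose, summed to 452 to 516 CPM against 688 to 739 CPM. B cell markers, with 0 of 7 called by edgeR and 0 at an unadjusted p under 0.05, summed to 13.6 to 22.8 CPM against 9.59 to 20.4 CPM, and T cell markers to 5.18 to 7.02 CPM against 4.69 to 9.35 CPM, with *Cd4* lower and the other 6 tested T cell markers not called. Neutrophil and dendritic cell markers summed to 8.01 to 13.2 CPM against 16.4 to 26.5 CPM, with *Itgax* called among 8 tested. Hepatocyte markers, 4 of 12 of which fell and 0 of which rose, summed to 69294 CPM or more in WT and to 58184 CPM or less in *Themis*-KO livers, and of the endothelial markers 1 of 10, *Lyve1*, rose. The part of any of these cell types in the tetraspanin values was not tested.

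The broadly expressed surface members did not pass the test. *Cd81* (ENSMUSG00000037706, forward strand, chr7:143052739-143067934), a hepatitis C virus receptor on human hepatocytes, had 232, 296 and 228 CPM in the WT and 276, 271 and 276 CPM in the *Themis*-KO livers. WT replicate 2 was the highest liver of all, so the groups overlapped (log2 fold change 0.12, SE 0.11, edgeR adjusted p = 0.498). *Cd82* (ENSMUSG00000027215, reverse strand, chr2:93419111-93463140), known as a metastasis suppressor, had 71.1, 77.5 and 62.3 CPM in the WT and 68.3, 62.3 and 74.3 CPM in the *Themis*-KO livers. Its log2 fold change of −0.042 (SE 0.11, edgeR adjusted p = 0.817) was positive, at 0.097, with total counts alone as the scaling. *Cd151* (ENSMUSG00000025510, forward strand, chr7:141467392-141471473), which binds laminin-receptor integrins, had 42.7, 44.3 and 43.9 CPM in the WT and 52.5, 57.8 and 50.5 CPM in the *Themis*-KO livers. The WT livers of *Cd151* lay close together and all *Themis*-KO livers above them, with a log2 fold change of 0.30 (SE 0.082) and an adjusted p of 0.0606 from edgeR, which was 0.0203 without *Themis*-KO replicate 3 and 0.0315 with total counts alone, within a range up to 0.495 over the 14 alternatives.
*Tspan3* and *Tspan4* did not pass either. *Tspan3* (ENSMUSG00000032324, reverse strand, chr9:56131725-56165477) had 5.51, 4.89 and 5.72 CPM in the WT and 7.90, 6.67 and 7.27 CPM in the *Themis*-KO livers, without overlap (log2 fold change 0.44, SE 0.14, edgeR adjusted p = 0.0848, and from 0.0453 with total counts alone to 0.571 over the alternatives). *Tspan4* (ENSMUSG00000025511, forward strand, chr7:141475240-141493427), a tetraspanin of migrasomes, the vesicles that migrating cells leave behind, had 40.9, 33.6 and 40.3 CPM in the WT and 49.2, 53.2 and 34.1 CPM in the *Themis*-KO livers. *Themis*-KO replicate 3 lay among the WT livers, with a log2 fold change of 0.25 (SE 0.17, edgeR adjusted p = 0.345). Without that liver the adjusted p was 0.0242, the lowest of its 14 alternatives, which reached 0.821. *Tspan4* shares 292 exonic bases with *Chid1* on the opposite strand, *Cd151* 193 with *Gm10575*, *Cd81* 104 with *R74862*, *Cd37* 13 with *Tead2* and *Tspan8* 4 with *4930422I22Rik*, so reads there are uncertain.

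**Figure D2:**
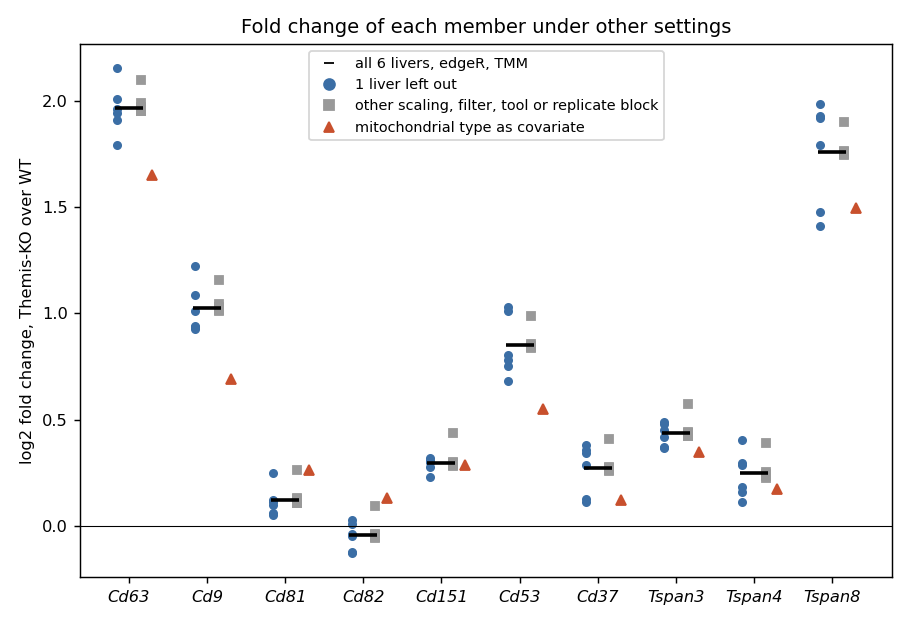
Fitted log2 fold change (vertical axis) of each member with all 6 livers (black bar), with 1 liver left out (blue), with another scaling, filter, tool or the replicate block (grey squares) and with the mitochondrial type as a covariate (orange triangles). *Cd63* stays between 1.65 and 2.15, and only *Cd82* has values on both sides of 0.

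Per length, *Cd81* was the most abundant member in both groups. *Cd63* took a larger share of the family's mRNA in the *Themis*-KO livers, which restates the rise it was chosen for. Levels between genes were compared as CPM per kilobase of the union of GENCODE exons. *Cd81* had 87.6 ± 13.1 in the WT and 95.3 ± 1.10 CPM per kilobase in the *Themis*-KO group (mean ± SD, n = 3 each, as for the following levels). In the WT group *Cd82* (23.4 ± 2.54), *Cd9* (20.0 ± 4.51), *Tspan4* (17.6 ± 1.85) and *Cd151* (15.9 ± 0.30) followed, and the liver ranges of each neighbouring pair among these 4 overlapped. *Cd63* (4.95 ± 1.23) and *Cd53* (4.54 ± 0.92) overlapped each other below them, and *Tspan8* (1.77 ± 0.68), *Cd37* (1.52 ± 0.28) and *Tspan3* (1.26 ± 0.10) formed the lowest, again overlapping, levels. In the *Themis*-KO group *Cd9* (40.7 ± 4.38) stood above *Cd82* (22.7 ± 1.99) without overlap, and *Cd63* (19.3 ± 1.5) lay within the liver ranges of *Tspan4* (20.9 ± 4.63) and *Cd151* (19.6 ± 1.37). *Cd53* and *Tspan8*, at 8.20 ± 1.97 and 6.02 ± 2.40 CPM per kilobase, overlapped.
Of the summed level of the 10 members, *Cd63* made up 2.21%, 2.6% and 3.49% in the WT livers, and its share of 8.46%, 8.07% and 7.96% was higher in every *Themis*-KO liver. The share of *Cd81* was 44.9% to 53.9% and 38.6% to 43.2%. The exon union of *Cd63* is 3682 bases long, whereas its protein-coding transcripts in the GENCODE basic set have a median of 1063 bases. With such transcript lengths the place of *Cd63* by mean level was 6th of 10 in the WT group, as before, and 3rd in the *Themis*-KO group, where the exon union gave 6th. Its share of the summed level was then 4.21%, 4.91% and 6.62% in the WT livers against 15.5%, 14.9% and 14.5% in the *Themis*-KO livers.

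The rest of the tetraspanin family was called at a share near the background. Of 22 further tetraspanins, 21 were in the table and 15 passed the filter, and *Tspan1*, *Tspan10*, *Tspan11*, *Upk1a*, *Upk1b* and *Prph2* had 5 counts or fewer in every liver. Of the 15 tested, 0 were called higher and 1 lower by edgeR, 6.67% beside 9.11% of all tested genes, and DESeq2 called 1 higher and 3 lower. With edgeR, 8 had an unadjusted p under 0.05, of which 5 were higher, beside 4449 of all 14496 tested genes, of which 2438 were higher. The median log2 fold change was 0.16. *Tspan12*, a cofactor of Norrin and Frizzled signalling and one of the more abundant tetraspanins of these livers, had 115, 115 and 106 CPM in the WT and 81.8, 80.9 and 95.8 CPM in the *Themis*-KO livers. Every *Themis*-KO liver lay below every WT liver, as in 16.9% of all tested genes, and the fitted log2 fold change came to −0.38 (SE 0.095; edgeR adjusted p = 0.0482). The count of called genes was 4 when *Themis*-KO replicate 3 was left out and 0 when any other liver was, and 4 to 8 had an unadjusted p under 0.05 in these fits.

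**Figure D3:**
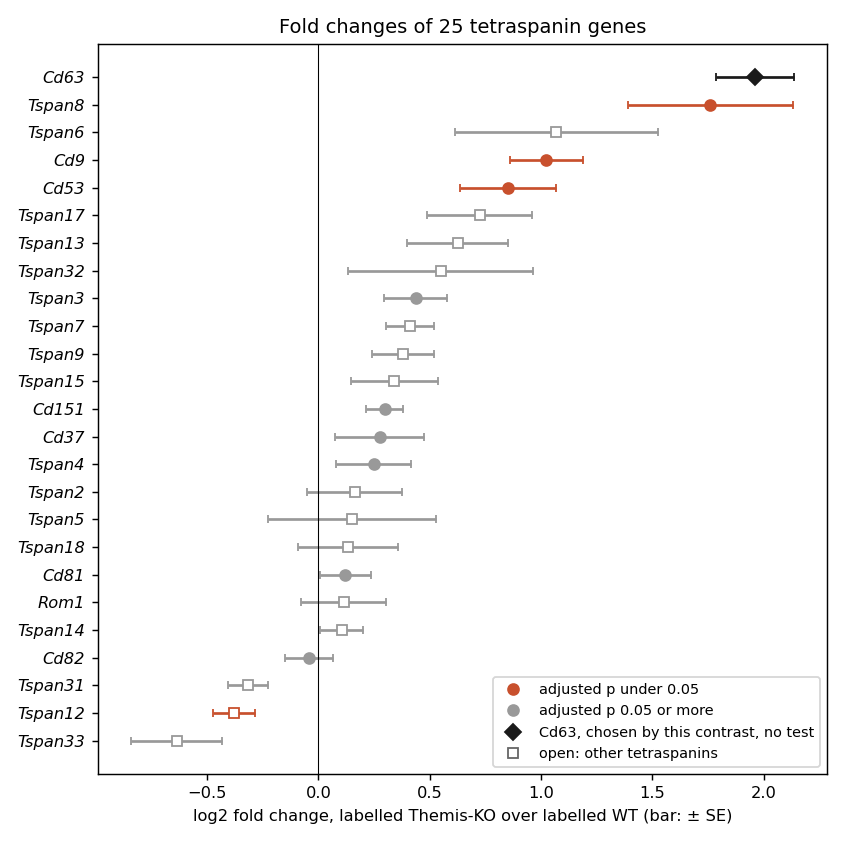
Fitted log2 fold change with its SE (horizontal axis) of the 25 tetraspanin genes that passed the filter, with filled symbols for the 10 members, open squares for the others, and orange for an adjusted p under 0.05 from edgeR. *Tspan8*, *Cd9* and *Cd53* are orange above 0 and *Tspan12* is orange below 0, at −0.38; *Cd63*, the black diamond, was not tested.

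Genes of proteins that join tetraspanin domains were called more often than the background, as a description of a list of 24 partners that were all tested. This list was chosen with earlier results of these data known, so its share of calls is no test of the partners. Of these, 7 rose and 1 fell, 33.3% in all, beside 9.11% of all tested genes, with a median log2 fold change of 0.47. *Hbegf*, whose membrane-bound growth factor precursor binds CD9, had 0.734, 0.720 and 0.908 CPM in the WT and 4.38, 2.49 and 1.70 CPM in the *Themis*-KO livers. This was a rise of 1.85 on the log2 scale (SE 0.38; edgeR adjusted p = 0.0335), at low levels. *Timp1*, a metalloproteinase inhibitor that binds CD63 at the cell surface, had 0.872, 0.768 and 1.62 CPM in the WT and 4.89, 4.52 and 2.13 CPM in the *Themis*-KO livers, a log2 fold change of 1.80 (SE 0.40; edgeR adjusted p = 0.0386). Both genes showed the lowest *Themis*-KO value in replicate 3, without overlap with the WT livers. *Cldn7*, a claudin that pairs with EpCAM, rose by a log2 fold change of 1.35 (SE 0.31; edgeR adjusted p = 0.0399), from a mean of 0.933 to 2.37 CPM.
*Met*, the receptor of hepatocyte growth factor, was the partner that fell, from 73.7, 62.7 and 65.3 CPM in the WT to 46.7, 47.1 and 47.4 CPM in the *Themis*-KO livers (log2 fold change −0.51, SE 0.087, edgeR adjusted p = 0.0230). The other partners that rose, named after their values were seen, were the adhesion receptors *Vcam1* (log2 fold change 1.09) and *Icam1* (0.95), the laminin receptor subunit *Itga6* (1.33), which binds CD151, and *Ptgfrn* (0.83), a direct partner of CD9 and CD81. *Igsf8*, the close relative of *Ptgfrn*, had a log2 fold change of 0.85 and an adjusted p of 0.0547 from edgeR, and *Itgb1* one of 0.16 with an adjusted p of 0.304. When a liver was left out, the number of called partners was 0 for replicate 1 and 1 for replicate 2 of either group, 5 for WT replicate 3 and 13 for *Themis*-KO replicate 3, with 11 to 15 at an unadjusted p under 0.05.

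Of 26 genes of multivesicular bodies and exosome release, compartments in which CD63 resides, all were tested, and 2 rose and 0 fell. These calls are 7.69% of the list, near the 9.11% of all tested genes, with a median log2 fold change of 0.13. *Rab31*, a small GTPase of endosomal traffic, had 5.37, 6.77 and 8.21 CPM in the WT and 11.4, 11.9 and 9.82 CPM in the *Themis*-KO livers (log2 fold change 0.70, SE 0.18, edgeR adjusted p = 0.0481). *Flot1*, a scaffold protein of membrane rafts, had 45.5, 54.0 and 57.5 CPM and 81.8, 91.1 and 67.9 CPM in the same order (0.62, SE 0.13, edgeR adjusted p = 0.0369). *Sdcbp* and *Pdcd6ip*, which encode the exosome proteins syntenin and ALIX, had log2 fold changes of 0.51 and 0.12 and adjusted p of 0.0564 and 0.294 from edgeR. DESeq2 called 4 of the 26, and leaving out replicate 1 or 2 of either group left 0 called, WT replicate 3 left 1 and *Themis*-KO replicate 3 left 10, with 4 to 13 at an unadjusted p under 0.05 with edgeR.
Of 14 membrane proteins of late endosomes and lysosomes, all tested, 2 rose and 0 fell, with a median log2 fold change of 0.11. This is 14.3% called, beside 9.11% of all tested genes, and rests on these 2 genes. With edgeR, 7 of the 14 had an unadjusted p under 0.05, 4 higher and 3 lower. Among all 14496 tested genes 4449 did, of which 2438 were higher. Every *Themis*-KO liver lay above every WT liver in 6 of the 14 and below in 3. These orders held for 17.7% and 16.9% of all tested genes. The called genes were *Cd68*, with a log2 fold change of 1.06 (SE 0.23, edgeR adjusted p = 0.0369), and *Laptm5*, with 0.88 (SE 0.15, edgeR adjusted p = 0.0229), and both are expressed mainly in macrophages or other leukocytes. The general lysosome membrane proteins *Lamp1* and *Lamp2* had 0.16 and −0.21, with adjusted p of 0.254 and 0.147 from edgeR. The summed level of the 14 genes was 2206 to 2309 CPM in WT and 2228 to 2323 CPM in *Themis*-KO livers. The number of called genes was 0 when replicate 1 or 2 of either group was left out, 4 for WT replicate 3 and 5 for *Themis*-KO replicate 3, with 4 to 8 at an unadjusted p under 0.05.

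**Figure D4:**
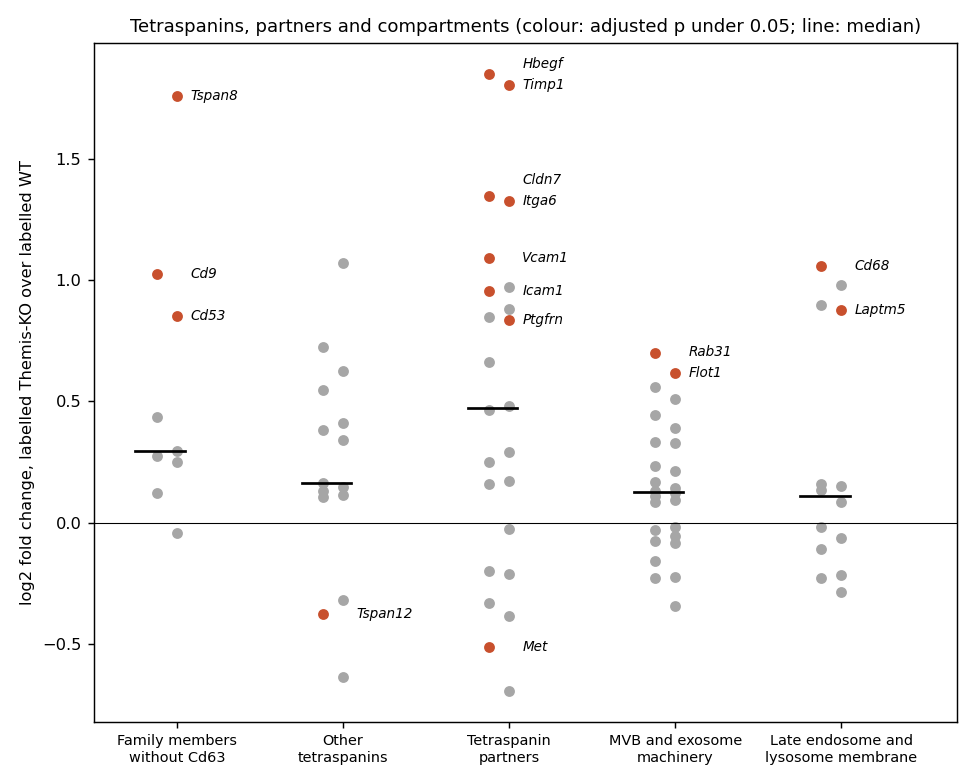
Fitted log2 fold change (vertical axis) of each tested gene in 5 lists, with *Cd63* left out; orange marks an adjusted p under 0.05 from edgeR, with the gene named, grey marks the rest, and the black line is the median of the list. The partners hold 7 orange genes above 0 and *Met* below 0, and the 2 compartment lists hold 2 orange genes each.

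The genes whose log2 CPM ran most like that of *Cd63* over the 6 livers were *H2-Ab1* and *H2-Eb1*, both subunits of MHC class II molecules, with *Gm30692*, *Dip2a* and *Psmd8*, a subunit of the proteasome. Their Pearson correlation with *Cd63* was 0.997 to 0.9985, a description over 6 livers in 2 groups to which the gap between the groups contributes. *H2-Ab1* had 56.5, 61.8 and 72.6 CPM in the WT and 133, 127 and 122 CPM in the *Themis*-KO livers, and so shared with *Cd63* the order of all 6 livers. Its log2 fold change was 1.00, compared with 1.96 for *Cd63*.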

How the data were processed

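Poly(A) RNA of 3 livers labelled WT and 3 labelled *Themis*-KO was sequenced. The authors mapped paired-end reads to GRCm38 with STAR 2.7.8a and estimated reads per gene with RSEM 1.3.3, per the labels, and deposited these expected counts (estimated counts) without normalization. The deposited values are whole, the rounding step is not described, and the annotation release and strand setting are not given in the sources used here. RSEM shares ambiguous reads between genes by estimation.

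Groups and replicate numbers were taken from the sample titles. Nothing in the labels says more about the animals than 1 numbered liver per sample, so p-values measure the spread between these samples. The 6 livers were compared in R 4.3.3 with edgeR 4.0.16: filterByExpr kept 14496 of 25403 genes, libraries were scaled by TMM, and glmQLFTest was run without covariates, with Benjamini-Hochberg adjustment over all tested genes and a threshold of 0.05. SEs were derived from the fold change and its F statistic. Single genes were also compared by an exact permutation test. The code was tested on simulated data.

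The members and gene lists were chosen with earlier results of these data known. Genes named are the members, *Themis*, up to 3 called genes in each direction per list and the 5 genes most correlated with *Cd63* (log2 CPM, prior count 2). *Vcam1*, *Icam1*, *Itga6*, *Ptgfrn*, *Igsf8*, *Itgb1*, *Sdcbp*, *Pdcd6ip*, *Lamp1*, *Lamp2*, *Krt7* and *Krt19* fall outside this rule and were chosen after their values were seen. Alternatives were RLE, upper quartile and total count scaling, no filter, a minimum of 10 counts per liver, the replicate block, DESeq2 1.42.0, the mitochondrial type (a *Gm28438* share over 50%) as a covariate, each liver left out and a 2-fold cutoff. Coordinates and lengths are from GENCODE vM21 (GRCm38), promoters from RefSeq, and figures from matplotlib 3.10.9.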

Additional observations from a re-analysis of the deposited data

How the results depend on the processing

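The study speaks of 3 pairs of livers, and the labels do not say which livers would form a pair. In their deviations from the group means, same-numbered livers correlated at 0.00028, −0.241 and −0.157, and livers of different numbers at 0.066 on average. With 3 livers per group these values cannot decide whether the numbers mark pairs. With the replicate block, edgeR called 62 of all tested genes, 0 of the 9 members other than *Cd63* (5 at an unadjusted p under 0.05), 0 of the other tetraspanins (5 unadjusted), 1 of the partners, 0 of the multivesicular body genes (6 unadjusted) and 0 of the late endosome and lysosome genes (4 unadjusted). The mitochondrial type as a covariate, which leaves 1 WT liver within a type, gave 3, 0, 0, 0, 0 and 0 in that order, and 1524, 2, 0, 6, 1 and 3 at an unadjusted p under 0.05, and it moved the log2 fold change of *Cd63* to 1.65. Leaving out each liver in turn gave 20 to 4267 of all tested genes, 0 to 5 members, 0 to 4 other tetraspanins, 0 to 13 partners, 0 to 10 multivesicular body genes and 0 to 5 late endosome and lysosome genes. DESeq2, run without the block, called 2369 genes in all, 3 members, 4 other tetraspanins, 4 multivesicular body genes and 4 late endosome and lysosome genes, and no filter gave 2179 in all and 4 of the last list. Total counts alone, which raised the median log2 fold change of tested genes from 0.0095 to 0.147, called 5 members, 4 multivesicular body genes and 4 late endosome and lysosome genes, and of all its calls 1449 were higher and 387 lower, against 721 and 600 with TMM. Upper quartile scaling called 0 other tetraspanins (8 unadjusted) and 1 multivesicular body gene. A cutoff of at least 2-fold left 431 genes in all, 0 other tetraspanins, 5 partners, 0 multivesicular body genes and 1 late endosome and lysosome gene. The sign of *Cd82* turned with total counts alone (0.097), the mitochondrial type (0.13), and without WT replicate 2 (0.031) or *Themis*-KO replicate 2 (0.013), within −0.12 to 0.031 over the livers left out. All other members kept the sign of their fold change in the 14 alternatives. The cause of these changes was not tested. *Tspan8*, *Cd37*, *Tspan3* and *Cd53* rest on 35 to 401 counts per liver, which limits their precision.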
